A study of Homo sapiens with 24 samples.

Results

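The cytokine receptors that signal through gp130, with the JAK kinases, the transcription factor STAT3 and the feedback inhibitor SOCS3, were followed across *FMR4* knockdown and overexpression in HEK293T cells, a human embryonic kidney line. The 10 genes, of 18395 measured, are *IL6ST*, *IL6R*, *LIFR*, *OSMR*, *CNTFR*, *IL11RA*, *JAK1*, *JAK2*, *STAT3* and *SOCS3*. Each was taken as the probe set that carries its symbol alone and has the highest mean, and each had 1 such probe set. *IL6ST* was selected on its measured difference between FMR4 siRNA and CTRL siRNA at 24 h. Values of *IL6ST* that rest on the 24 h siRNA arrays are therefore given as a description, with no test. Their intervals do not allow for that selection and are not to be read as tests. The other 9 genes were taken as its pathway partners, though the list was drawn up with earlier results of these data known.

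The 8 conditions were FMR4 siRNA, CTRL siRNA, FMR4 pcDNA3.1 and CTRL pcDNA3.1, each at 24 h and at 6 h after transfection, with 3 arrays per condition and 24 in all. siRNA was given at 40 nM with Lipofectamine RNAiMAX and plasmid at 0.5 µg with Lipofectamine 2000CD, so the siRNA and plasmid arms also differ in reagent. *FMR4* is a long non-coding RNA transcribed antisense to *FMR1*. CTRL siRNA is a scrambled sequence and CTRL pcDNA3.1 is the empty vector, and all groups are the same wild-type line. For each biological replicate, which was put on 1 array, 3 technical replicates had been pooled. *FMR4* itself was not analysed here, since no probe set used carries its name, so the knockdown and the overexpression could not be checked against these labels. Values are deposited log2 expression levels from Affymetrix Human Gene ST arrays, where 1 unit is a doubling, and levels of different probe sets are not ranked against each other.

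IL-6, IL-11, LIF, oncostatin M and CNTF all signal through gp130, the receptor chain encoded by *IL6ST*, which pairs with a ligand-binding chain such as IL6R, IL11RA, LIFR, OSMR or CNTFR. Kinases of the JAK family bound to the receptor tails phosphorylate STAT3, which enters the nucleus and activates genes that include *SOCS3*, whose product in turn blocks the receptor complex. Since gp130 is shared, its abundance bears on the response to each of these 5 cytokines, and in many cells the ligand-binding chains set which cytokine is sensed.

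The response element of STAT factors, TTCNNNGAA, which reads the same on both strands, was looked for in the RefSeq promoter windows of the 10 genes (250 bases before to 50 after each transcription start, GRCh38.p14), since members of the pathway can also be its targets. All 10 genes matched, with 19 windows among them. The motif was present in 2 windows, both of *LIFR*, and these stretches are shown with the motif in capitals, 5′ to 3′ on the strand of the gene, which is the minus strand.
*LIFR*, upstream start (chr5:38595552-38595580): ccattactagTTCCTTGAAccacaatcca
*LIFR*, middle of its 3 starts (chr5:38557631-38557659): gctttggagtTTCATCGAAaggtctttaa
Of 35116 promoter windows of the same length in the table, 7.66% hold the motif. Among the wider lists of the pathway described further on, 45 genes have 58 such windows, and 5 of these windows hold it. These letters are a match only, and no binding was measured.

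The arrays were alike in overall level, with medians between 7.43 and 7.53. One array stood apart, FMR4 siRNA 6 h replicate 3, whose log2 values differed from its 2 group mates with an SD of 0.264 and 0.31 over genes, against 0.115 to 0.179 for all other pairs of replicates. Of 12 markers of the HEK293T line, 9 were clearly above background and none was near it. Of 11 markers of other cells, 4 were near background, 6 were between and 1, *COL1A1* (8.31), was clearly above. The mean of those 11 markers lay between 5.95 and 6.1 on every array. Within that narrow range some groups did not overlap, such as FMR4 pcDNA3.1 6 h (5.95 to 6.01) and FMR4 siRNA 6 h (6.04 to 6.1).

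To judge which receptors were measurable, each level was set against 428 olfactory receptor and keratin-associated protein genes, which most cell lines do not express. Their 75th percentile was 6.0 and their 95th was 7.72. A gene at or under the first value is called near background and a gene over the second clearly above it, as a description, since probe sets differ in sensitivity. By this measure 7 of the 10 genes were clearly above background, 2 were between and 1 was near it, while 56.3% of all genes were clearly above and 17.7% near background.

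**Figure D1:**
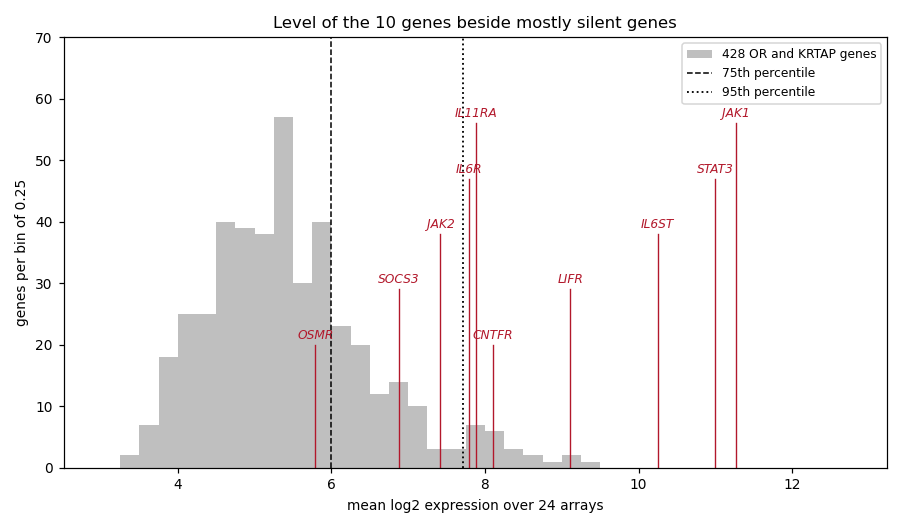
Mean log2 expression over 24 arrays of the 10 genes (red lines, whose heights only separate the names) on the x axis, beside a histogram of 428 olfactory receptor and keratin-associated protein genes (grey, genes per bin of 0.25 on the y axis). *OSMR* at 5.79 lies under the 75th percentile of 6.0, *SOCS3* at 6.88 and *JAK2* at 7.42 lie between the dashed and dotted lines, and the other 7 lie above 7.72.

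Over the 8 conditions the shared chain varied more than any of its partners. The means of *IL6ST* spanned 1.17 log2 units, a span that 0.304% of all genes reached. The lowest of these means, CTRL siRNA at 24 h, belongs to the contrast on which *IL6ST* was selected. The rank of *IL6ST* was thus partly fixed in advance and is given as a description. The spans of the other 9 genes ran from 0.16 (*JAK2*) to 0.44 (*JAK1*), beside a median of 0.24 over all genes, and 8 of the 9 lay over that median.

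*IL6ST* (probe set 8112139) encodes gp130 and averaged 10.25. At 24 h it was 10.68, 10.59 and 10.44 with FMR4 siRNA, against 9.57, 9.24 and 9.42 with CTRL siRNA. It was 10.18, 10.17 and 10.05 with FMR4 pcDNA3.1 at that time, against 10.35, 10.37 and 10.2 with CTRL pcDNA3.1. The 3 CTRL siRNA arrays were lower than all other arrays, and those of FMR4 siRNA overlapped none of the other 24 h groups.

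At 6 h *IL6ST* was 10.42, 10.56 and 10.75 with FMR4 siRNA, against 10.32, 9.98 and 10.33 with CTRL siRNA. With plasmid it was 10.37, 10.3 and 10.42 for FMR4 pcDNA3.1, against 10.46, 10.52 and 10.36 for CTRL pcDNA3.1. The FMR4 siRNA arrays lay above those of CTRL siRNA at this time too, by less, and the plasmid groups overlapped.

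In order from the highest mean, the conditions were FMR4 siRNA 6 h (10.58 ± 0.17), FMR4 siRNA 24 h (10.57 ± 0.12), CTRL pcDNA3.1 6 h (10.45 ± 0.08), FMR4 pcDNA3.1 6 h (10.36 ± 0.06), CTRL pcDNA3.1 24 h (10.3 ± 0.09), CTRL siRNA 6 h (10.21 ± 0.2), FMR4 pcDNA3.1 24 h (10.13 ± 0.07) and CTRL siRNA 24 h (9.41 ± 0.17; SD, n = 3 each). Each of the first 6 overlapped the next in that order. The last step was 0.73 and the arrays on its sides did not overlap, so CTRL siRNA at 24 h stood apart from every other condition, while FMR4 siRNA at 24 h overlapped its neighbours. RefSeq lists a pseudogene of *IL6ST*, and whether the probe set also reads it was not tested.

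**Figure D2:**
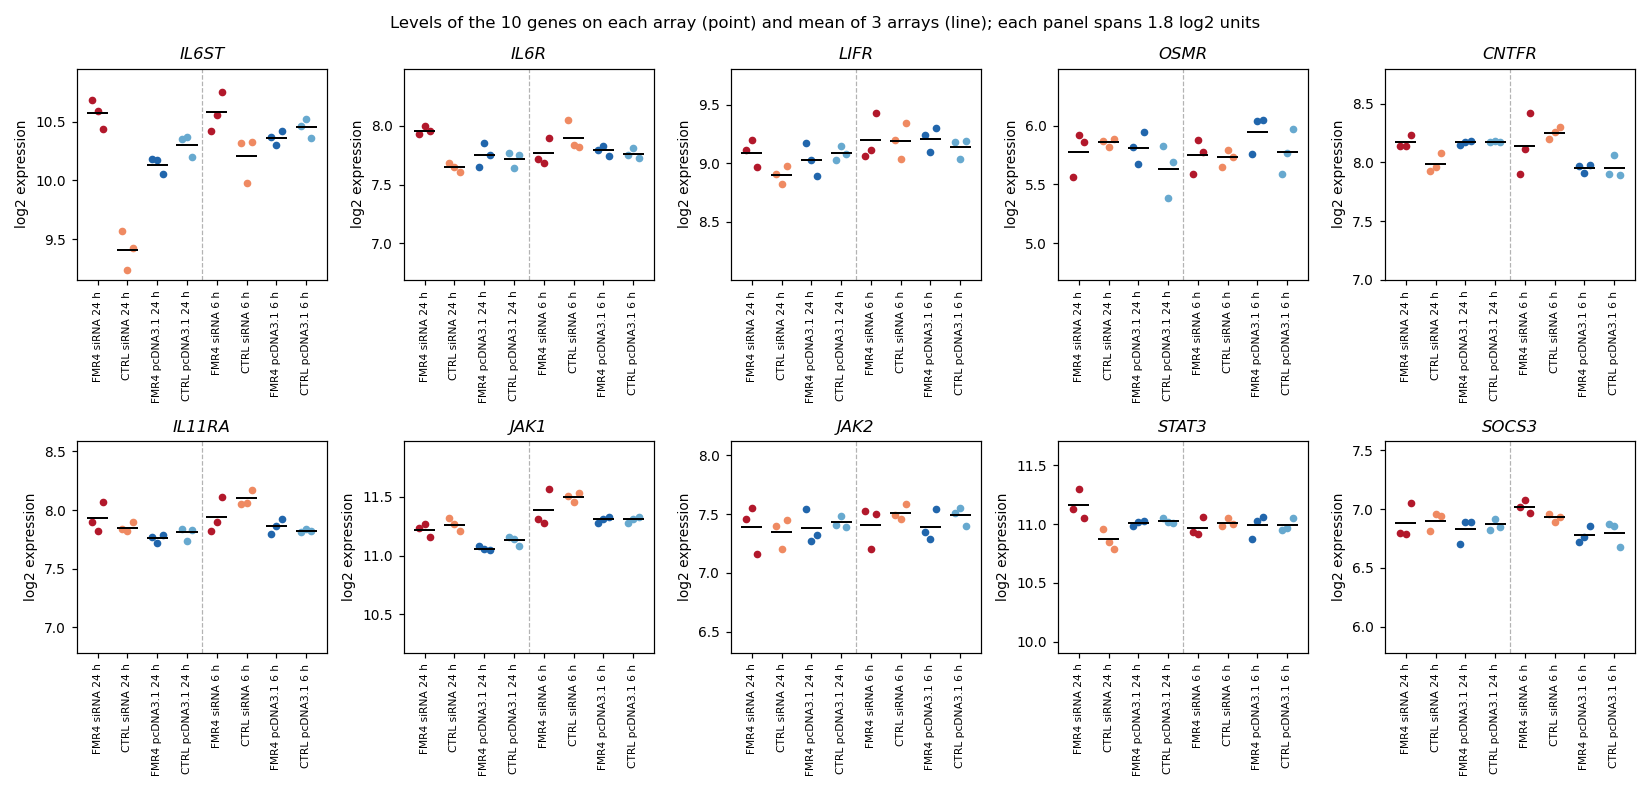
Log2 expression (y axis, each panel spanning 1.8 units) of the 10 genes on each of 24 arrays (points) with the mean of 3 arrays (line), by condition on the x axis, 24 h left of the dashed line and 6 h right of it. *IL6ST* in CTRL siRNA at 24 h, at 9.24 to 9.57, is the only group whose mean sits more than 0.5 from all other means of its panel.

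Differences were tested in a limma model over the 24 arrays that has a mean for each condition, with Benjamini-Hochberg adjustment over the 21214 probe sets that have a gene name. A gene is called at an adjusted p under 0.05, and every adjusted p below comes from this fit unless an array is said to be left out or another fit is named. The replicates are called biological by the submitters, with no word on whether they were separate cultures, so the p-values measure the spread between these arrays. Groups whose arrays do not overlap are named as a description only. The share of all genes whose arrays do not overlap was not counted. In bulk RNA, fewer cells that express a gene and less of its RNA per cell cannot be told apart.

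The question put to the 24 h siRNA arrays was what *FMR4* knockdown did to mRNA levels. *IL6R* and *STAT3* were called higher with FMR4 siRNA than with CTRL siRNA, and the other 7 tested genes were not called. *IL6ST*, which chose the set, has no test here. The mean of *IL6ST* was 10.57 ± 0.12 with FMR4 siRNA and 9.41 ± 0.17 with CTRL siRNA (SD, n = 3 each), a difference of 1.16 (SE 0.099, 95% interval 0.96 to 1.37) or 2.24-fold. Leaving out each array in turn gave 1.08 to 1.24. Neither this range nor the interval allows for the selection of *IL6ST* on this contrast.

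*IL6R* (probe set 7905789), the chain that binds interleukin-6, was 7.93, 8.0 and 7.96 with FMR4 siRNA, against 7.68, 7.65 and 7.61 with CTRL siRNA. The groups did not overlap, and both lay close to the upper mark of the background genes. The difference was 0.32 (SE 0.069, adjusted p = 0.00564), or 1.24-fold, and it kept its call without any 1 of the 6 arrays.

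*STAT3* (probe set 8015607), the transcription factor that gp130 receptors activate, was 11.13, 11.3 and 11.05 with FMR4 siRNA, against 10.96, 10.85 and 10.79 with CTRL siRNA. The groups did not overlap. *STAT3* rose by 0.29 (SE 0.067, adjusted p = 0.00874), or 1.22-fold. The call was lost when replicate 2 of FMR4 siRNA (0.22, adjusted p = 0.0833) or replicate 3 of CTRL siRNA (0.25, adjusted p = 0.0607) was left out.

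*IL6R* and *STAT3* make 2 of the 9 genes other than *IL6ST* called at 24 h, where 5.89% of all genes were called and 3.44% were called higher. The median difference of those 9 was 0.08 and that of all genes 0.0. The level of *IL6ST* in CTRL siRNA enters this comparison as it enters those below, and *IL6R* and *STAT3* also had their lowest condition means of all 8 in CTRL siRNA at 24 h (7.65 and 10.87) and their highest in FMR4 siRNA at 24 h (7.96 and 11.16).

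The other receptor chains differed by less at 24 h. *LIFR* (probe set 8111677), which binds LIF together with gp130, was 9.11, 9.2 and 8.97 with FMR4 siRNA, against 8.91, 8.82 and 8.98 with CTRL siRNA, and the difference of 0.19 had an interval of -0.01 to 0.39 (adjusted p = 0.353). *CNTFR* (probe set 8160823), the membrane-anchored chain that binds CNTF, was 8.14, 8.14 and 8.23 against 7.93, 7.96 and 8.08 in the same order, without overlap. Its difference of 0.18 missed the threshold (adjusted p = 0.306).

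*IL11RA* (probe set 8154934), the chain for interleukin-11, differed by 0.08 (interval -0.07 to 0.22) and its arrays overlapped. *OSMR* (probe set 8105040), which forms the oncostatin M receptor with gp130, was near background in 8 of 8 conditions, with condition means between 5.63 and 5.95. No difference of *OSMR* in these data was called, and at such levels a change in the RNA may not be seen.

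Among the kinases, *JAK1* (probe set 7916747), which associates with gp130, was 11.24, 11.27 and 11.16 with FMR4 siRNA at 24 h, against 11.32, 11.27 and 11.21 with CTRL siRNA. The groups overlapped, and the difference was -0.04 (interval -0.17 to 0.09). *JAK2* (probe set 8154178) differed by 0.04 (interval -0.17 to 0.25) from a level between the background marks. *SOCS3* (probe set 8018864), the STAT3-induced inhibitor that binds gp130, was 6.8, 6.79 and 7.05 against 6.81, 6.96 and 6.94, a difference of -0.03 (interval -0.18 to 0.13), also from a level between the marks.

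At 6 h after siRNA none of the 10 genes was called, where 0.0598% of all genes were. With *IL6ST* the arrays did not overlap (values above) and the difference was 0.37 (SE 0.099, interval 0.16 to 0.57), with an adjusted p = 0.557. *IL11RA* differed by -0.16 (interval -0.3 to -0.01, adjusted p = 1.0). When the array that stood apart, replicate 3 of FMR4 siRNA at 6 h, was left out, 4.64% of all genes were called (854, of which 727 lower), and 3 of the 10 genes were called lower with FMR4 siRNA: *CNTFR* (-0.25, adjusted p = 0.0304), *IL11RA* (-0.24, adjusted p = 0.0428) and *JAK1* (-0.21, adjusted p = 0.0239).

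Overexpression of *FMR4* called none of the 10 genes at either time, where 0% of all genes were called at 24 h and 0% at 6 h by limma (602 and 372 genes had an unadjusted p under 0.05, none of them among the 10). *IL6ST* was lower on all 3 FMR4 pcDNA3.1 arrays than on all 3 CTRL pcDNA3.1 arrays at 24 h, with a difference of -0.17 (SE 0.099, interval -0.38 to 0.03, adjusted p = 0.999). At 6 h its difference was -0.08 (interval -0.29 to 0.12). *OSMR* differed by 0.18 at both times (interval -0.06 to 0.42 at each), and the other 8 genes by at most 0.09 in either direction.

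**Figure D3:**
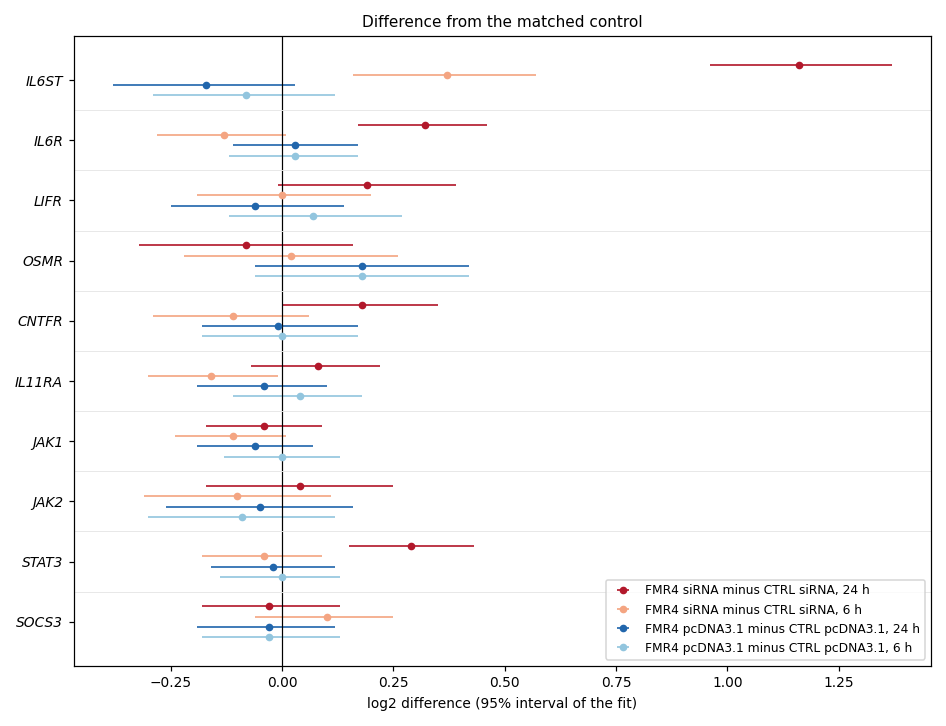
Log2 difference from the matched control (x axis) of the 10 genes (y axis), with the 95% interval of the fit, for FMR4 siRNA and FMR4 pcDNA3.1 at 24 h and 6 h. *IL6ST* at 24 h with FMR4 siRNA, at 1.16, stands right of all other points, and all plasmid intervals include 0.

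The effect of FMR4 siRNA at 24 h was set against that at 6 h in 1 test of the difference, in which 1.19% of all genes were called. *IL6R* had effects of 0.32 at 24 h and -0.13 at 6 h, which differed by 0.45 (SE 0.097, adjusted p = 0.0206), and it was the single one of the 9 genes to be called. That call was lost with only the siRNA arrays in the fit (adjusted p = 0.195), with the replicate number as a block (adjusted p = 0.0837), and without replicate 2 of FMR4 siRNA at 6 h (0.064) or 24 h (0.0539), replicate 1 of CTRL siRNA at 6 h (0.0701) or its replicate 3 at 24 h (0.0592). *STAT3* had a difference of 0.33 between its effects (SE 0.094, adjusted p = 0.101), and with replicate 3 of FMR4 siRNA at 6 h left out it was called (0.38, adjusted p = 0.0154), as were *CNTFR* (0.43, adjusted p = 0.00412) and *IL11RA* (0.32, adjusted p = 0.0301), in a fit where 8.31% of all genes were called. For *IL6ST* the effects differed by 0.79 (interval 0.51 to 1.08, no test).

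The 2 controls were compared because both stand for cells without a change in *FMR4*. They differ in nucleic acid and reagent, and these cannot be told apart. At 24 h, where 4.49% of all genes were called, *IL6ST* was 10.3 ± 0.09 with CTRL pcDNA3.1 and 9.41 ± 0.17 with CTRL siRNA (SD, n = 3 each), a difference of 0.9 or 1.86-fold (interval 0.69 to 1.1, no test). None of the other 9 genes was called, though *CNTFR* was with array weights (adjusted p = 0.0435), where 10.3% of all genes were. *STAT3* (0.16, adjusted p = 0.226), *CNTFR* (0.18, adjusted p = 0.276) and *LIFR* (0.18, adjusted p = 0.357) were higher on all 3 CTRL pcDNA3.1 arrays than on all CTRL siRNA arrays, and *JAK1* was lower on all 3 (-0.14, adjusted p = 0.27).

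At 6 h, where 3.31% of all genes were called, *IL11RA* was 7.81, 7.84 and 7.82 with CTRL pcDNA3.1, against 8.05, 8.06 and 8.17 with CTRL siRNA. It was called lower with CTRL pcDNA3.1 by -0.27 (SE 0.07, adjusted p = 0.0395), without overlap, and the call was lost without any 1 of the 6 arrays (adjusted p between 0.0527 and 0.177). *CNTFR* (-0.3, adjusted p = 0.0514) and *JAK1* (-0.19, adjusted p = 0.0788) were also lower on all 3 CTRL pcDNA3.1 arrays and missed the threshold. *IL6ST* was higher on all 3, by 0.24 (interval 0.03 to 0.44, adjusted p = 0.154). *CNTFR* was called with trend and robust moderation (0.048), array weights (0.00115), dim probe sets left out (0.0421), quantile normalization (0.037) and the replicate block (0.0433). *JAK1* was called with array weights (0.0048) and quantile normalization (0.0365), and *IL6R* with array weights (0.0438). Array weights called 17.7% of all genes. *IL11RA* lost its call in the fit to fewer arrays (0.168), with median centring (0.0524) and with all probe sets (0.0569).

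Within each transfection, 24 h was compared with 6 h. These comparisons share arrays with those above. In CTRL siRNA, 5 of the 9 genes other than *IL6ST* were lower at 24 h than at 6 h and none was higher, where 18.6% of all genes were called and 8.76% were called lower. The median difference of the 9 was -0.24, and that of all genes -0.01. *IL6ST* was 9.41 ± 0.17 at 24 h and 10.21 ± 0.2 at 6 h (SD, n = 3 each), a difference of -0.8 (interval -1.0 to -0.6, no test).

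The called genes in CTRL siRNA were 4 receptor chains and 1 kinase. *JAK1* was 11.32, 11.27 and 11.21 at 24 h and 11.51, 11.46 and 11.53 at 6 h, a difference of -0.24 (SE 0.062, adjusted p = 0.0107). *IL6R* was 7.68, 7.65 and 7.61 at 24 h and 8.05, 7.84 and 7.82 at 6 h, a difference of -0.25 (SE 0.069, adjusted p = 0.0131). The groups did not overlap for either gene, nor for the next 3.

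*IL11RA* was 7.84, 7.82 and 7.9 at 24 h and 8.05, 8.06 and 8.17 at 6 h (-0.24, SE 0.07, adjusted p = 0.0184). *CNTFR* was 7.93, 7.96 and 8.08 at 24 h and 8.2, 8.26 and 8.3 at 6 h (-0.26, SE 0.084, adjusted p = 0.0333). *LIFR* was 8.91, 8.82 and 8.98 at 24 h and 9.2, 9.04 and 9.34 at 6 h (-0.29, SE 0.095, adjusted p = 0.0377). The differences of the 5 genes thus ran from -0.29 to -0.24.

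Each of these calls was lost in some fits that left out 1 array, which also leave fewer arrays in a group. In CTRL siRNA, *JAK1* lost its call without 6 h replicate 3 (0.0506) or 24 h replicate 3 (0.057), *IL6R* without 6 h replicate 1 (0.1) or 24 h replicate 3 (0.0536), and *IL11RA* without 6 h replicate 3 (0.104), 24 h replicate 1 (0.0595) or 24 h replicate 2 (0.0629). *CNTFR* kept its call only without 24 h replicate 3 and *LIFR* only without 6 h replicate 2, and their adjusted p without the other arrays reached 0.12 and 0.208. All differences stayed negative.

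In FMR4 siRNA none of the 9 was called between times, where 16.7% of all genes were. *IL6ST* was 10.57 ± 0.12 at 24 h and 10.58 ± 0.17 at 6 h (SD, n = 3 each), a difference of -0.01 (interval -0.21 to 0.2). *IL6R* at 24 h (7.93, 8.0 and 7.96) lay above 6 h (7.72, 7.68 and 7.9), by 0.2 (interval 0.06 to 0.34, adjusted p = 0.0524), and *STAT3* differed by 0.19 (interval 0.05 to 0.33, adjusted p = 0.0533). Both were called when 6 h replicate 3 was left out (*IL6R* 0.27, adjusted p = 0.014, and *STAT3* 0.24, adjusted p = 0.0297), where 13.3% of all genes were. *STAT3* was called also without 24 h replicate 3 (0.25, adjusted p = 0.0226), when *SOCS3* was called too (-0.23, adjusted p = 0.0365), beside 15.9% of all genes. *JAK1*, at -0.16 (adjusted p = 0.0817), was called without 6 h replicate 1 (-0.2, adjusted p = 0.0367) and without 6 h replicate 2 (-0.22, adjusted p = 0.0338), and 24.4% of all genes were called in the first of these fits.

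In the plasmid arm, where 6.33% of all genes were called with FMR4 pcDNA3.1 and 5.76% with CTRL pcDNA3.1, *JAK1* was the only one of the 10 called. With FMR4 pcDNA3.1 *JAK1* was 11.08, 11.06 and 11.05 at 24 h and 11.28, 11.31 and 11.33 at 6 h, a difference of -0.24 (SE 0.062, adjusted p = 0.0223) that lost its call without any 1 of the 6 arrays (adjusted p between 0.0527 and 0.0919). With CTRL pcDNA3.1 it was 11.16, 11.14 and 11.08 at 24 h and 11.28, 11.31 and 11.33 at 6 h (-0.18, adjusted p = 0.0882). *JAK1* thus had a lower mean at 24 h than at 6 h in all 4 transfections, with arrays that did not overlap. *CNTFR* was higher at 24 h with both plasmids, by 0.22 in each (adjusted p = 0.135 with FMR4 pcDNA3.1 and 0.134 with CTRL pcDNA3.1). *IL6ST* differed by -0.23 with FMR4 pcDNA3.1 (interval -0.43 to -0.02, adjusted p = 0.188) and by -0.14 with CTRL pcDNA3.1 (interval -0.35 to 0.06, adjusted p = 0.451).

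**Figure D4:**
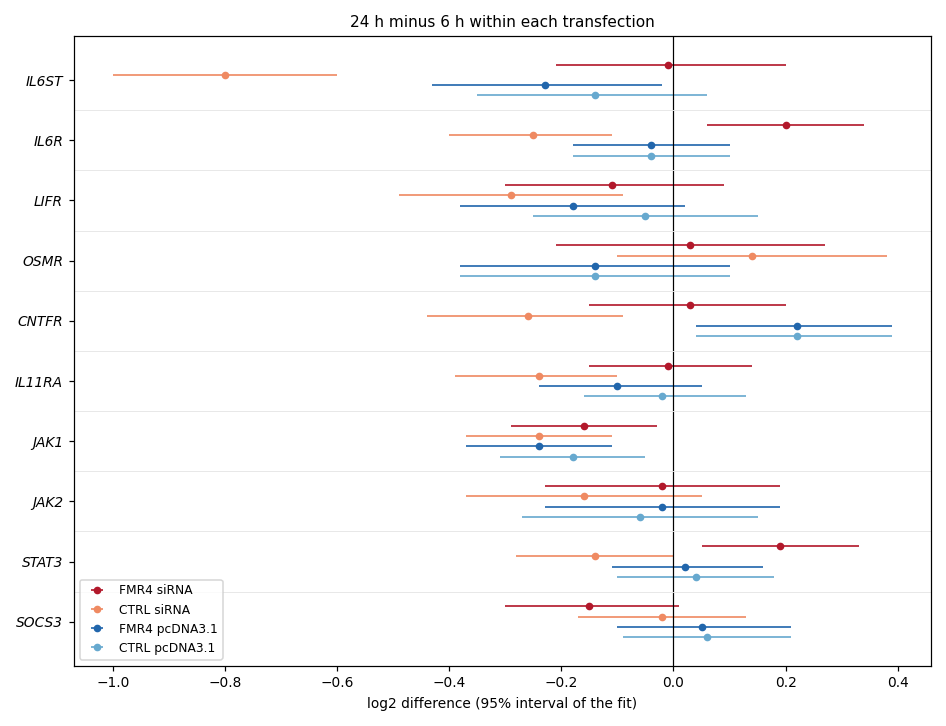
Log2 difference between 24 h and 6 h (x axis) of the 10 genes (y axis) within each transfection, with the 95% interval of the fit. CTRL siRNA is lowest for *IL6ST* at -0.8, and *JAK1* lies under 0 in all 4 transfections, between -0.24 and -0.16.

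The rest of the pathway was counted from wider lists of 63 measured genes. Of 7 ligands listed with the family, not all of which need signal through gp130, 2 were near background (*IL6* 5.53 and *IL31* 5.11), 4 were between (*IL11*, *LIF*, *OSM* and *IL27*) and 1 was clearly above (*CTF1*, cardiotrophin-1, 8.75). None of the 7 was called in any comparison. The sheddases *ADAM10* (10.61) and *ADAM17* (9.76), which cut receptor chains such as IL6R from the membrane, were clearly above background and were not called in any comparison.

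At 24 h after siRNA, 3 of the 63 genes were higher with FMR4 siRNA and none was lower. *PIAS2*, of the family of PIAS proteins that restrain STAT factors, averaged 10.02 ± 0.12 with FMR4 siRNA and 9.63 ± 0.12 with CTRL siRNA (SD, n = 3 each), a difference of 0.4 (SE 0.068, adjusted p = 0.000483) that kept its call without any 1 array. *CEBPB*, a transcription factor gene induced by STAT3, averaged 10.06 ± 0.08 with FMR4 siRNA and 9.73 ± 0.15 with CTRL siRNA (0.33, SE 0.075, adjusted p = 0.00848), and lost its call without replicate 3 of FMR4 siRNA (0.0508) or replicate 2 of CTRL siRNA (0.0879). *CISH*, a SOCS family inhibitor, differed by 0.22 (SE 0.064, adjusted p = 0.0436), and lost its call without replicate 1 (0.163) or 3 (0.159) of FMR4 siRNA and without replicate 1 (0.196) or 2 (0.138) of CTRL siRNA. The *CISH* call was lost also with the replicate block (0.106), median centring (0.0653), quantile normalization (0.0724), trend and robust moderation (0.0612) and every probe set kept (0.0685). The share of the 63 called was 4.76%, all higher, beside 5.89% of all genes called and 3.44% called higher. Of 23 target genes of STAT3 1 was called, *CEBPB*, and the median difference of the 23 was 0.09.

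None of the 63 was called at 6 h after siRNA or with overexpression at either time, or in the difference between the siRNA effects at 24 h and 6 h by limma. An unadjusted p under 0.05 was found for 3 of the 63 at 6 h after siRNA, 0 with overexpression at 24 h, 1 with it at 6 h and 10 in the difference of effects. Over all 18395 genes the numbers were 718, 602, 372 and 2080 in the same order. In CTRL pcDNA3.1 against CTRL siRNA at 24 h, 2 of the 63 were called, both higher with CTRL pcDNA3.1, a share of 3.17% beside 4.49% of all genes. *SOCS4* averaged 9.96 ± 0.11 with CTRL pcDNA3.1 and 9.33 ± 0.13 with CTRL siRNA (0.63, adjusted p = 0.000691), and *PIAS2* 10.05 ± 0.05 with CTRL pcDNA3.1 and 9.63 ± 0.12 with CTRL siRNA (0.43, adjusted p = 0.000443; SD, n = 3 each). Both kept their calls without any 1 array. At 6 h 4 of the 63 were called, all lower with CTRL pcDNA3.1, a share of 6.35% beside 3.31% of all genes. *BCL3*, a co-regulator of NF-kB, was lower by -0.59 (adjusted p = 0.017), *TIMP1*, a protease inhibitor, by -0.55 (0.0254), *PIM1*, a survival kinase, by -0.4 (0.0496) and *BCL2L1*, which encodes BCL-XL, by -0.39 (0.0491). *BCL2L1* and *PIM1* lost the call without any 1 array. *TIMP1* lost it without replicate 1 (0.089) or 3 (0.109) of CTRL pcDNA3.1 and without replicate 1 (0.0695) or 3 (0.125) of CTRL siRNA. *BCL3* lost it without replicate 1 (0.0607) or 3 (0.0976) of CTRL pcDNA3.1 and without replicate 3 (0.105) of CTRL siRNA.

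Between times, in CTRL siRNA 12 of the 63 were lower at 24 h than at 6 h and 2 were higher, a share of 22.2% beside 18.6% of all genes. They include 5 of the 11 SOCS and PIAS inhibitors (45.5%) and 6 of the 23 STAT3 targets (26.1%), all lower. Of all genes 8.76% were called lower, and the lists were not tested as sets. *BCL2L1* (-0.68, adjusted p = 0.000227), *PIAS2* (-0.35, adjusted p = 0.00116), *SOCS4* (-0.46, adjusted p = 0.00382), *TIMP1* (-0.52, adjusted p = 0.00565) and *CISH* (-0.26, adjusted p = 0.00771) kept their calls without any 1 array. *IL27RA*, the chain that pairs with gp130 for interleukin-27, was lower by -0.28 (adjusted p = 0.0125), and lost its call without CTRL siRNA 6 h replicate 2 (0.0824) or 24 h replicate 1 (0.0823).

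In FMR4 siRNA 5 of the 63 were higher at 24 h than at 6 h and 4 were lower, a share of 14.3% beside 16.7% of all genes. *CEBPB* (0.44, adjusted p = 0.000442) and the kinase gene *TYK2* (0.28, adjusted p = 0.0032) were higher and *SOCS6* lower (-0.41, adjusted p = 0.00539), all 3 also without any 1 array, though none with only these arrays in the fit. *CCND1* was lower (-0.31, adjusted p = 0.0083), a call lost without 6 h replicate 3 (0.0522) or 24 h replicate 2 (0.0727). *BCL2L1* was lower (-0.41, adjusted p = 0.013), a call lost without 6 h replicate 3 (0.0823), and the adaptor gene *GAB2* was higher (0.32, adjusted p = 0.0139), a call lost without 6 h replicate 2 (0.0766) or 24 h replicate 2 (0.0934). In CTRL siRNA too, *TYK2* was called higher at 24 h (0.18, adjusted p = 0.0436) and *CCND1* lower (-0.23, adjusted p = 0.0442). Those calls were lost in 5 (*TYK2*) and 4 (*CCND1*) of the 6 fits without 1 array.

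With FMR4 pcDNA3.1 1 of the 63 was higher at 24 h and 2 were lower, and with CTRL pcDNA3.1 1 was higher and 3 were lower. The shares were 4.76% with FMR4 pcDNA3.1 and 6.35% with CTRL pcDNA3.1, beside 6.33% and 5.76% of all genes. *PTPN2*, which encodes a phosphatase of JAK kinases and STAT factors, was lower with FMR4 pcDNA3.1 (-0.38, adjusted p = 0.00214) and with CTRL pcDNA3.1 (-0.37, adjusted p = 0.00292), in both also without any 1 array. *STAT4* was higher with FMR4 pcDNA3.1 (0.32, adjusted p = 0.04), a call kept only without 24 h replicate 2, and with CTRL pcDNA3.1 (0.45, adjusted p = 0.00451), a call kept without any 1 array. *STAT4* was called higher at 24 h also with FMR4 siRNA (0.3, adjusted p = 0.0267) and CTRL siRNA (0.27, adjusted p = 0.04). Those calls were lost in 3 (FMR4 siRNA) and 6 (CTRL siRNA) of the 6 fits without 1 array. *MYC* was lower with FMR4 pcDNA3.1 (-0.38, adjusted p = 0.0165), a call lost without 6 h replicate 1 (0.0635), 6 h replicate 3 (0.0601) or 24 h replicate 3 (0.116), and with CTRL pcDNA3.1 (-0.35, adjusted p = 0.0315), a call lost without 6 h replicate 1 (0.114), 6 h replicate 2 (0.098), 24 h replicate 2 (0.121) or 24 h replicate 3 (0.136). *KLF4* was lower with CTRL pcDNA3.1 (-0.49, adjusted p = 0.041), a call lost without any 1 of the 6 arrays (adjusted p between 0.0614 and 0.138).

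Finally, the genes whose levels followed *IL6ST* most closely were found by Pearson's r over the 8 condition means, among 1752 genes that spanned at least 0.5 log2 units. They were *MED28* (r = 0.975), a Mediator subunit, *TFAP2C* (r = 0.975), a transcription factor, *CHPF* (r = 0.974), a chondroitin synthase, *YWHAH* (r = 0.973), a 14-3-3 protein, and *SLC41A1* (r = 0.968), a magnesium transporter. All 5 were lowest in CTRL siRNA at 24 h, and the 8 points share that condition. *IL6ST* stood apart there, so the choice by r largely fixed this in advance, and it is a description. How many of the 1752 genes were lowest in that condition was not counted. *YWHAH*, for example, averaged 11.88 ± 0.03 with FMR4 siRNA at 24 h and 10.98 ± 0.04 with CTRL siRNA (SD, n = 3 each). Among the members, r with *IL6ST* over the same 8 means was 0.8 for *LIFR*, 0.7 for *STAT3*, 0.6 for *IL6R* and 0.4 for *JAK2*, and between -0.28 (*OSMR*) and 0.24 (*CNTFR*) for the other 5, as a description of 8 points.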

How the data were processed

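mRNA was measured on 24 Affymetrix Human Gene ST arrays (version 1.0 per the labels, 2.0 in the study's methods), 3 in each of 8 conditions taken from the labels. The deposited log2 expression values are those of the authors, who subtracted background and normalized with GC-RMA (version not given in the sources used here). No further normalization was applied, and the raw scans were not analysed here. The number of arrays limits the precision.

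Of 33297 probe sets, 21214 have a gene name in the platform annotation, updated through RefSeq names for 27 symbols, 12083 have none and 1754 of the named ones have several symbols. Those with several were tested but not counted as genes, which leaves 18395 genes, each taken as its probe set of highest mean. The linear model (limma 3.58.1, R 4.3.3) gave each condition 1 mean, with 16 residual degrees of freedom and two-sided tests. It was checked on simulated data. Promoter windows came from RefSeq (GRCh38.p14), and figures were drawn with matplotlib 3.10.9.

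All 10 members are named. From the wider lists the text names called genes, at most 6 of lowest p in a comparison, and the 5 genes most like *IL6ST*. *TYK2*, *CCND1* and *STAT4* are given also for the other transfections in which they were called. *YWHAH*, the ligands and the sheddases were picked as examples. The members, lists and tests were chosen with earlier results of these data known. Alternatives were a fit to fewer arrays (those of the time, transfection or arm compared), trend and robust moderation, array weights, median centring, quantile normalization, leaving out dim probe sets, averaging the probe sets of a gene, testing all probe sets, a replicate block, and leaving out each array. Some genes of the wider lists are not reported here.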

Additional observations from a re-analysis of the deposited data

Results flagged for a closer look

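For *IL6R* the effect of FMR4 siRNA at 24 h differed from that at 6 h in a test of the difference itself, by 0.45 (adjusted p = 0.0206 in limma). That call was lost in the fit to the siRNA arrays alone (0.195), with the replicate block (0.0837) and without any of 4 single arrays (0.0539 to 0.0701). The same 0.45 is the gap between its difference of 24 h from 6 h in FMR4 siRNA (0.2) and in CTRL siRNA (-0.25), where the arrays moved in opposite directions.

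In 2 other genes every array of one contrast moved one way and every array of the other the opposite way, and these differences were not tested. How many of all genes do so was not counted. For *IL6ST* at 24 h the effects of FMR4 siRNA (1.16) and FMR4 pcDNA3.1 (-0.17) lay 1.33 apart. *IL6ST* was selected on the 1.16, so this gap was partly fixed in advance and is a description. For *CNTFR* the difference of 24 h from 6 h in CTRL siRNA (-0.26) lay -0.48 from that in FMR4 pcDNA3.1 and -0.48 from that in CTRL pcDNA3.1 (0.22 in each).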

How the results depend on the processing

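Counts are over the 10 genes and the 63 of the wider lists, with *IL6ST* left out where it has no test. At 24 h after siRNA 5 genes were called, against 8 in the fit to fewer arrays and 3 to 4 without 1 array (3 without CTRL siRNA 24 h replicate 2). With overexpression both counts were 0 under every setting run. At 6 h after siRNA the count was 0, and 0 to 9 without 1 array, 9 without FMR4 siRNA 6 h replicate 3. CTRL pcDNA3.1 against CTRL siRNA at 24 h gave 2, which became 5 in the fit to fewer arrays, 6 with array weights, 4 with quantile normalization, 4 with median centring and 2 to 3 without 1 array. At 6 h it gave 5, against 0, 17, 8 and 2 under those settings, 2 with all probe sets and 0 to 2 without 1 array, whichever was left out. Between times, FMR4 siRNA gave 9, against 0 in the fit to fewer arrays and 4 to 13 without 1 array (4 without FMR4 siRNA 24 h replicate 2). CTRL siRNA gave 19, and 7 to 16 without 1 array (7 without CTRL siRNA 6 h replicate 3, 9 without 24 h replicate 1 or 3 and 12 without 6 h replicate 1). FMR4 pcDNA3.1 gave 4, against 13 in the fit to fewer arrays, 13 with array weights and 1 to 3 without 1 array (1 or 2 without any but 24 h replicate 2). CTRL pcDNA3.1 gave 4, against 7, 11, 2 with all probe sets and 2 to 3 without 1 array (2 without replicate 1 or 2 at 6 h or replicate 2 or 3 at 24 h). The difference of the siRNA effects gave 1, against 0 in the fit to fewer arrays, 7 with array weights, 0 with the replicate block and 0 to 16 without 1 array (16 when FMR4 siRNA 6 h replicate 3 was dropped, 2 when its 24 h replicate 3 was). A fit to fewer arrays has fewer residual degrees of freedom and its own estimate of the spread. Counts rose in some of these fits and fell in others, and the cause of the shifts was not tested.

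No called difference turned its direction. Of 1330 values of single genes under settings other than leaving out an array, 1248 were unchanged, 53 lost their call, 25 gained one and 4 uncalled values moved by over 1 SD. Of 954 with an array left out the numbers were 817, 125, 12 and 0. Unchanged means a call that was kept, or an uncalled value that stayed uncalled and moved by under 1 SD. For *IL6ST* where it has no test, it means only a move of under 1 SD. Pairing by replicate number was looked for by a rule that all 3 correlations of same-numbered arrays exceed 0.1. The rule was met in 0 of 10 pairs of groups (range of the correlations -0.38 to 0.47). With 3 arrays per group it cannot exclude pairing. The replicate block cost the difference of the siRNA effects its 1 call. A level near background limits what *OSMR* can show.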
